A study of Mus musculus with 6 samples.

Results

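The genes described here carry fatty acids into the heart muscle cell and burn them in the mitochondrion. They are 36 of the 34745 genes in the deposited gene table, taken by symbol from a list of enzymes, carriers and regulators of fatty acid uptake, activation, the carnitine shuttle, beta-oxidation, electron transfer, thioester hydrolysis, lipolysis, uncoupling and fuel choice. All 36 had enough counts to be tested, among 15198 genes tested in all. RNA was sequenced from left ventricles of wild-type male C57BL/6 mice, 8 weeks old per the labels, collected 6 weeks after surgery. 3 libraries carry the label TAC, for transverse aortic constriction, surgery that ties the aortic arch to a smaller bore and puts the left ventricle under pressure. The other 3 are labelled Sham, the same surgery without tying the aorta. The comparison asks how the ventricle's RNA differs under pressure load. Whether each library is a separate mouse is not said in the labels, so p-values reflect only how these libraries spread, which may be technical.

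The libraries held 17399510 to 28401399 gene counts each, with 12.0% to 16.0% from mitochondrially encoded genes. A check of the labels on 2 genes whose RNA rises in a pressure-loaded ventricle went against them. Nppa, which encodes atrial natriuretic peptide, had 92.2, 64.3 and 95.1 CPM (counts relative to library size, scaled by the TMM method) in libraries 1, 2 and 3 of the TAC label and 772, 1894 and 595 CPM in libraries 1, 2 and 3 of the Sham label (log2 -3.70, SE 0.45, adjusted p = 0.0222). Acta1, the skeletal muscle actin gene, had 641, 446 and 121 CPM in the TAC-labelled libraries and 3282, 5029.5 and 3060.3 CPM in the Sham-labelled ones (log2 difference -3.23, SE 0.56, adjusted p = 0.0448). Every direction below is therefore a direction between libraries as labelled, and values follow the order 1, 2, 3. Where a sentence gives 2 sets of values, the TAC-labelled libraries come first. Differences are log2 of TAC over Sham as labelled, with adjusted p from edgeR's quasi-likelihood test (Benjamini-Hochberg over 15198 genes, threshold 0.05).

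Long-chain fatty acids are the main fuel of the adult heart. Lipoprotein lipase frees them at the capillary wall, CD36 and transport proteins bring them in, and acyl-CoA synthetases trap them as acyl-CoA. The carnitine shuttle moves the acyl group into the mitochondrion, where beta-oxidation removes acetyl units in a repeated cycle of dehydrogenation, hydration, dehydrogenation and thiolysis, and passes electrons to the respiratory chain.

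Most of the fatty acid genes had modestly higher RNA levels in the TAC-labelled libraries. The log2 difference was above 0 for 34 of 36 genes, against 50.9% of all genes tested. The median over the 36 genes was 0.51 (lower quartile 0.28, upper quartile 0.67), against 0.01 over all genes tested. In scaled CPM, every TAC-labelled library lay above every Sham-labelled one for 25 of the 36, against 13.4% of all genes. The reverse held for 1, Ucp2, against 13.6%. At an unadjusted p under 0.05, 25 genes were higher in the TAC-labelled libraries, against 9.56% of all genes, and 1 was higher in the Sham-labelled ones, against 11.4%.

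After adjustment over all genes, 1 of the 36 passed the threshold in edgeR, Hadh, against 0.322% of all genes called higher in the TAC-labelled libraries. None of the 36 was called higher in the Sham-labelled libraries, where 1.11% of all genes were. At the looser adjusted p of 0.1, 10 of the 36 were higher in the TAC-labelled libraries, against 1.74% of all genes. DESeq2, run on 22073 genes, called 20 of the 36 higher in the TAC-labelled libraries, against 2.07% of the genes it was run on, and none higher in the Sham-labelled ones, against 3.21%. Run on the 15198 genes that edgeR tested, an alternative chosen after seeing the data, DESeq2 again called 20 and none, against 3.15% and 4.65% of all genes. Among the 8113 genes expressed at least as highly as the lowest of the 36, 10.9% were higher in the TAC-labelled libraries at an unadjusted p under 0.05, and 14.7% had no overlap in that direction.

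**Figure D1:**
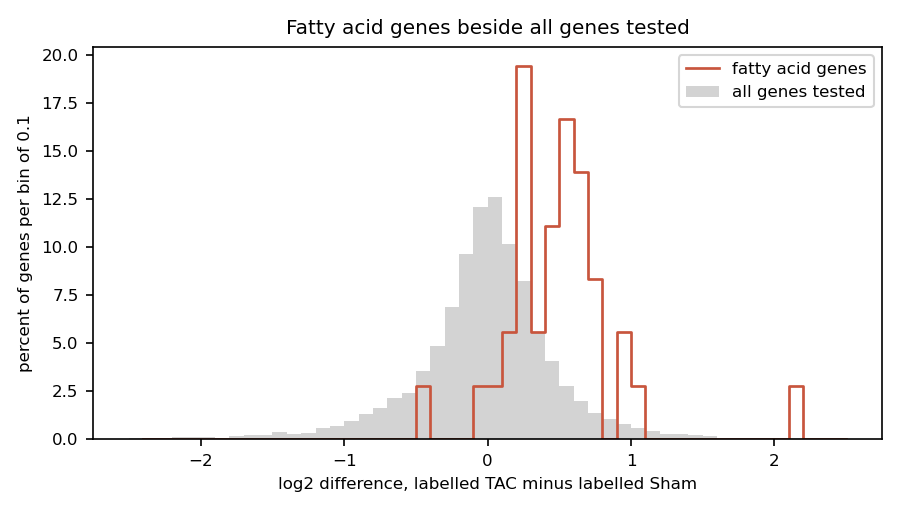
Percent of genes (y axis, per bin of 0.1) by log2 difference, labelled TAC minus labelled Sham (x axis), for the 36 fatty acid genes (red line) and all 15198 genes tested (grey); 70 genes lie beyond the plotted range. The red line sits to the right of the grey bars, with a median of 0.51 against 0.01, and Acot1 stands alone near 2.17.

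In each library the 36 genes together took a small share of all gene counts. The share was 2.03%, 1.86% and 2.26% in the TAC-labelled libraries and 1.64%, 1.52% and 1.68% in the Sham-labelled ones, with no overlap. The library Sham 2 was the lowest of the 6 for 25 of the 36 genes. Without it, 34 of the 36 differences were still above 0, the median was 0.41, and 19 genes were higher in the TAC-labelled libraries at an unadjusted p under 0.05, against 5.99% of all genes. After adjustment edgeR then called none of the 36 in either direction. Over all genes it called 2 higher in the TAC-labelled libraries (0.0129%) and 22 higher in the Sham-labelled ones. The highest value fell in TAC 3 for 16 genes, in TAC 1 for 11, in TAC 2 for 7 and in Sham 2 for 2. The mean log2 deviation of the 36 genes from their own averages was 0.28, 0.193 and 0.287 in the TAC-labelled libraries and -0.149, -0.433 and -0.179 in the Sham-labelled ones.

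**Figure D2:**
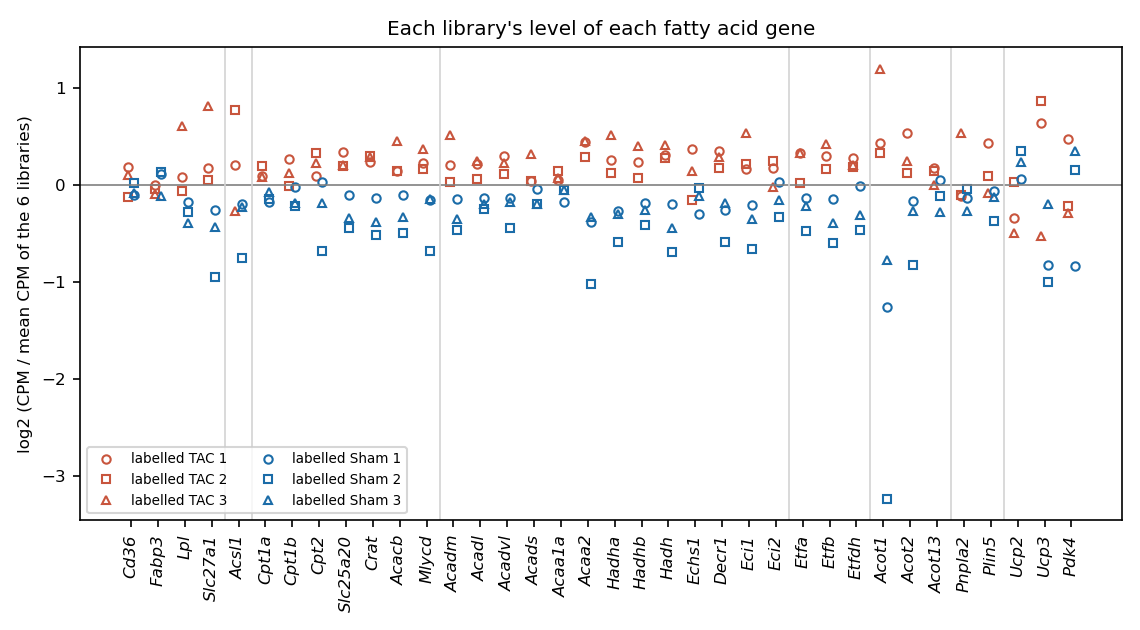
log2 of each library's CPM over the mean CPM of the 6 libraries (y axis) for each of the 36 genes (x axis, grouped by step), with red symbols for the TAC-labelled libraries and blue for the Sham-labelled ones. Blue squares, the library Sham 2, are the lowest point for 25 genes, and Ucp2 is the gene with all red symbols below all blue.

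Markers of the heart's cell types were summed in the same libraries. Of 10 cardiomyocyte markers, 9 had a difference above 0 (6 at an unadjusted p under 0.05, median 0.35). The summed level of the 10 was 61175 to 76531 CPM in the TAC-labelled libraries and 45614 to 59544 CPM in the Sham-labelled ones. Myh6 was the largest part of these sums, at 25561 to 32774 CPM and 13733 to 23896 CPM, and without it the sums overlap between groups. All 8 fibroblast markers had a difference below 0 (median -1.14), with sums of 906 to 1304 CPM and 2437 to 3864 CPM, and Col1a2 and Postn passed the threshold. The 8 macrophage markers also all lay below 0 (median -0.66), at 169.6 to 309.8 CPM and 386 to 410.5 CPM. The 8 endothelial markers, 2 of them above 0, summed to 1313 to 1342 CPM and 1215 to 1368 CPM. The 5 erythroid markers all lay above 0, none at an unadjusted p under 0.05, and summed to 274 to 593 CPM and 266 to 345 CPM. White adipocyte markers summed to at most 3.96 CPM in any library, with Adipoq, Lep, Plin1, Cidec and Retn too low to test, and of the brown adipocyte markers Cidea alone could be tested, at 18.2, 17.97 and 18.2 CPM and 19.7, 21.5 and 19.8 CPM. Of the atrial markers 4 could be tested, all below 0, with sums of 72.4 to 139 CPM and 641 to 1896 CPM that are mostly Nppa. The atrial light chain Myl7 had 0.0967, 1.43 and 11.6 CPM and 9.95, 0.141 and 10.2 CPM, low in TAC 1, TAC 2 and Sham 2, and Myl4 had 0.580, 6.62 and 29.1 CPM and 27.7, 1.73 and 33.5 CPM. The part of these cell markers in the differences of the fatty acid genes was not tested. In bulk tissue, fewer cells of a type and less RNA per cell cannot be told apart.

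In CPM, 2 of the 4 uptake genes separated the groups and 2 overlapped. Lpl, which encodes lipoprotein lipase, had 5103, 4619.8 and 7354 CPM in the TAC-labelled libraries and 4251, 3975 and 3659 CPM in the Sham-labelled ones (log2 difference 0.52, SE 0.20, adjusted p = 0.188). The groups did not overlap, and TAC 3 was well above the other libraries. Slc27a1, which encodes the fatty acid transport protein FATP1, had 93.7, 86.02 and 146 CPM and 69.6, 43.1 and 61.7 CPM, again without overlap (log2 difference 0.90, SE 0.25, adjusted p = 0.110). Cd36, the main membrane fatty acid translocase, overlapped between groups at 2050.0, 1651 and 1928 CPM and 1678, 1822 and 1705 CPM (log2 difference 0.11, SE 0.13, adjusted p = 0.663). Fabp3, the heart's cytosolic fatty acid binding protein, also overlapped, at 1099.8, 1066 and 1026 CPM and 1189, 1205 and 1018 CPM (log2 difference -0.10, SE 0.12, adjusted p = 0.689).

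Fabp3 dominates this step per unit of gene length. Its mean over the 6 libraries was 1337 FPKM (fragments per kilobase of gene, scaled to sequencing depth, as the authors deposited them), the highest of the 36, followed by Lpl at 628 and Acadl at 567 FPKM. At the low end stood Ucp3 at 7.73, Ucp2 at 7.55, Acot1 at 7.19 and Acaa1a at 3.005 FPKM. The length behind the deposited FPKM exceeds the gene's own span for 2 of the 36, Pnpla2 and Ucp2. It is also large beside the span for others, such as 4857 of 5229 bases for Acadvl and 7533 of 10624 bases for Acaa1a. Levels compared between genes, and sums over genes, therefore depend on that length. The summed FPKM of the 4 uptake genes was 2249.8 ± 201 (SD, n = 3) in the TAC-labelled libraries and 2173 ± 104 in the Sham-labelled ones, a ratio of 1.04. Without Fabp3 the ratio was 1.29. FPKM lacks the TMM scaling, and in FPKM Fabp3 did not overlap between groups, with Sham above TAC. It had 1286, 1267 and 1238 FPKM and 1463, 1460 and 1310 FPKM.

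Activation is represented by Acsl1, the main long-chain acyl-CoA synthetase of heart. It had 848, 1257 and 610.4 CPM in the TAC-labelled libraries and 645, 437 and 629.9 CPM in the Sham-labelled ones (log2 difference 0.67, SE 0.27, adjusted p = 0.215). TAC 2 was the highest of the 6 libraries and Sham 2 the lowest, while TAC 3 fell among the Sham-labelled libraries.

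In CPM, all 7 genes of the carnitine shuttle and its malonyl-CoA control lay higher in each library labelled TAC than in any labelled Sham. Over all genes tested, 13.4% did so. In FPKM, which lacks the TMM scaling, Cpt1b and Cpt2 overlapped. Cpt1b had 140.2 FPKM in TAC 2 and 143.9 in Sham 1, and Cpt2 had 23.4 in TAC 1 and 23.6 in Sham 1. The shuttle begins with carnitine palmitoyltransferase at the outer membrane, which malonyl-CoA inhibits. Cpt1b, its muscle form, had 694, 574 and 631 CPM and 569.6, 499 and 509.7 CPM in the TAC-labelled and Sham-labelled libraries (log2 difference 0.27, SE 0.12, adjusted p = 0.253). Cpt1a, the form best known from liver, had 98.4, 106 and 97.4 CPM and 81.3, 83.5 and 87.6 CPM (log2 difference 0.26, SE 0.10, adjusted p = 0.186). No difference in the balance of the 2 forms was detected. Cpt1a made up 13.0% ± 1.52 (SD, n = 3) of their summed FPKM in the TAC-labelled libraries and 13.0% ± 1.11 in the Sham-labelled ones (exact two-sided permutation test p = 0.9, where 0.1 is the smallest that 3 against 3 can give).

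The inner steps of the shuttle followed the same order of groups. Slc25a20, the carrier that exchanges acylcarnitine for carnitine across the inner membrane, had 149, 135 and 136 CPM and 109.6, 86.6 and 93.2 CPM (log2 difference 0.54, SE 0.12, adjusted p = 0.0716). Cpt2, which returns the acyl group to CoA inside, had 128, 151 and 141 CPM and 124, 75.3 and 106 CPM (log2 difference 0.47, SE 0.18, adjusted p = 0.201). Crat, carnitine acetyltransferase, which buffers acetyl-CoA, had the smallest adjusted p of this step at 315, 329 and 327 CPM and 244, 187 and 206 CPM (log2 difference 0.61, SE 0.12, adjusted p = 0.0594). None of the 7 passed the threshold.

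The enzymes that make and remove malonyl-CoA were both among these genes. Acacb, the acetyl-CoA carboxylase at the mitochondrial surface that makes the inhibitor, had 675, 676 and 842 CPM and 570.0, 434 and 489 CPM (log2 difference 0.55, SE 0.15, adjusted p = 0.108). Mlycd, malonyl-CoA decarboxylase, which removes it, had 80.7, 77.1 and 89.4 CPM and 61.9, 42.8 and 62.3 CPM (log2 difference 0.57, SE 0.16, adjusted p = 0.118). In both genes Sham 2 was the lowest library. The summed FPKM of the 7 genes was 326 ± 15.2 (SD, n = 3) and 261 ± 27.4, a ratio of 1.25.

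**Figure D3:**
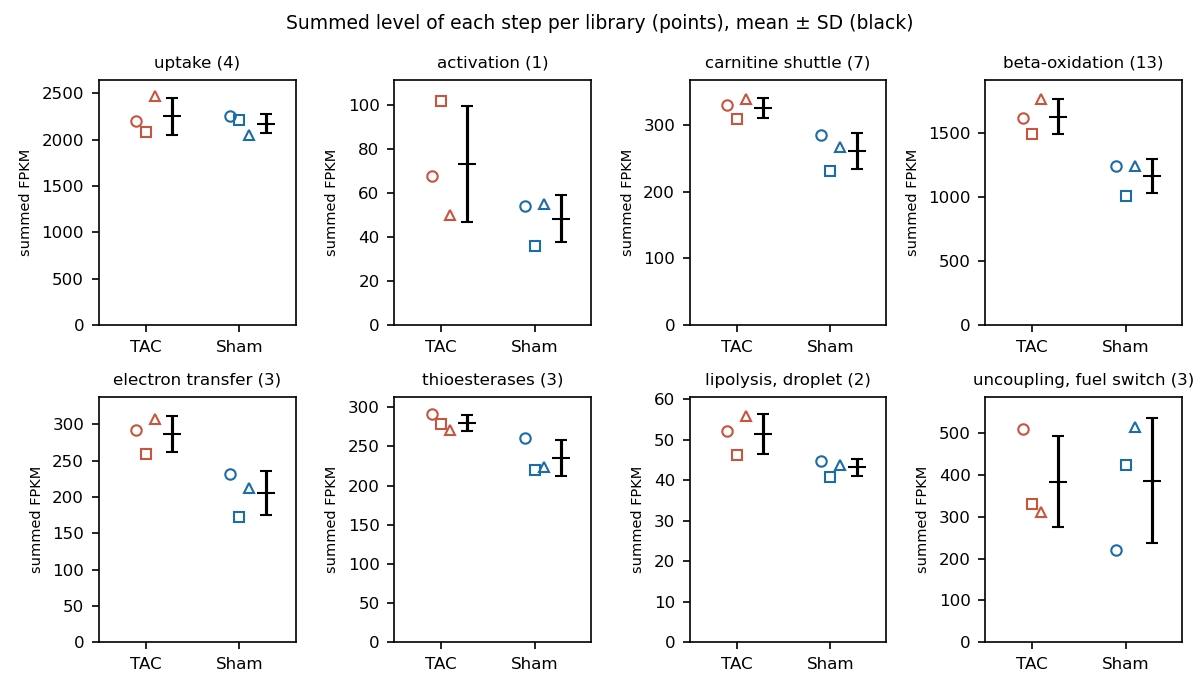
Summed FPKM (y axis, from 0) of the genes of each step, with the number of genes in brackets, for each library (circle 1, square 2, triangle 3; red labelled TAC, blue labelled Sham) and mean ± SD of 3 libraries in black. The groups separate in the carnitine shuttle, beta-oxidation, electron transfer, thioesterase and lipolysis panels and overlap in uptake, in activation and in uncoupling and fuel switch.

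Beta-oxidation held the gene that passed the threshold. Hadh encodes the mitochondrial short-chain hydroxyacyl-CoA dehydrogenase, the second dehydrogenation of the cycle, and lies at chr3:131233419-131272101 in GRCm38. It had 398, 390.2 and 427 CPM in the TAC-labelled libraries and 279, 199 and 235 CPM in the Sham-labelled ones (log2 difference 0.77, SE 0.14, adjusted p = 0.0488), and the lowest library labelled TAC was above the highest labelled Sham. The call is close to the threshold. Leaving out a single library ended it for each of TAC 1, TAC 2, TAC 3, Sham 2 and Sham 3, with adjusted p from 0.0997 to 0.146, while without Sham 1 it was 0.0378. The log2 difference stayed between 0.66 and 0.90 in those fits. The 250 bases before its RefSeq start site (chr3:131272102-131272351, minus strand, GRCm38.p6) are shown because it is the only gene of the 36 that passed.
Hadh: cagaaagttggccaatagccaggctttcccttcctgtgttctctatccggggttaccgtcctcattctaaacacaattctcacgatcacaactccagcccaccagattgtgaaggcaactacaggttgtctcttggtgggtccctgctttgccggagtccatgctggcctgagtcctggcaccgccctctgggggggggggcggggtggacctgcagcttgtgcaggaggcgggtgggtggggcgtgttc

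The first dehydrogenation of the cycle is shared by enzymes for different chain lengths. Acadm, for medium chains, had 798, 708 and 991 CPM in the TAC-labelled libraries and 629, 501 and 543 CPM in the Sham-labelled ones (log2 difference 0.58, SE 0.16, adjusted p = 0.110). Acadvl, for very long chains, had 679, 596 and 645 CPM and 503, 406 and 489.7 CPM (log2 difference 0.46, SE 0.13, adjusted p = 0.110). Acadl, for long chains, had 1339, 1204 and 1374 CPM and 1054, 973 and 1006 CPM (log2 difference 0.37, SE 0.11, adjusted p = 0.135). Acads, for short chains, showed the smallest of these differences, at 70.00, 70.1 and 85.03 CPM and 66.1, 59.7 and 59.4 CPM (log2 difference 0.28, SE 0.12, adjusted p = 0.226). In all 4 the groups did not overlap.

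The trifunctional protein carries out the later reactions on long chains, with Hadha and Hadhb as its alpha and beta subunits. Hadha had 1177, 1071 and 1403 CPM in the TAC-labelled libraries and 819.9, 654 and 798 CPM in the Sham-labelled ones (log2 difference 0.68, SE 0.15, adjusted p = 0.0700). Hadhb had 157, 140.2 and 176 CPM and 118, 100.2 and 111 CPM (log2 difference 0.52, SE 0.12, adjusted p = 0.0815). The 2 genes lie head to head on chromosome 5 with 85 bases between their deposited ends. Their RefSeq starts lie farther apart, inside those ends, and the 300-base promoter windows of the 2 genes overlap by 228 bases. The stretch of 85 bases is shown because it lies between the genes of the 2 subunits (chr5:30155163-30155247, plus strand, GRCm38.p6).
Hadha to Hadhb: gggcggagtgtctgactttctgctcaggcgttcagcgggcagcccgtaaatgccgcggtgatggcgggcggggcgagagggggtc

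The count of Hadha over that of Hadhb was 7.52, 7.64 and 7.99 in the TAC-labelled libraries and 6.98, 6.53 and 7.17 in the Sham-labelled ones, without overlap. That ratio of counts also depends on gene length and was not tested between groups. Acaa2, the mitochondrial thiolase that ends the cycle, had 432, 388 and 435 CPM and 244, 156 and 252 CPM (log2 difference 0.94, SE 0.19, adjusted p = 0.0563), the largest difference of this step. Acaa1a, the peroxisomal thiolase, had 23.4, 25.04 and 23.8 CPM and 19.99, 21.8 and 21.8 CPM (log2 difference 0.18, SE 0.11, adjusted p = 0.376). Acaa1a has a close copy, Acaa1b, so its counts are uncertain where reads were shared.

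Auxiliary enzymes handle double bonds in unsaturated fatty acids. Decr1, the dienoyl-CoA reductase, had 385, 342 and 369 CPM and 254, 201 and 265 CPM in the TAC-labelled and Sham-labelled libraries (log2 difference 0.61, SE 0.13, adjusted p = 0.0684). Eci1, an enoyl-CoA isomerase, had 129, 135 and 167 CPM and 100.2, 72.97 and 90.9 CPM (log2 difference 0.71, SE 0.16, adjusted p = 0.0700), and its relative Eci2 had 94.7, 99.4 and 82.8 CPM and 85.5, 66.5 and 75.5 CPM (log2 difference 0.28, SE 0.13, adjusted p = 0.258). Eci2 overlapped between groups, while Decr1 and Eci1 did not. Echs1, the short-chain enoyl-CoA hydratase, also overlapped at 155, 108 and 132 CPM and 97.2, 117 and 110.4 CPM (log2 difference 0.28, SE 0.15, adjusted p = 0.329), and TAC 2 fell among the Sham-labelled libraries.

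All 13 beta-oxidation genes had a difference above 0, against 50.9% of all genes tested. In CPM, 11 had every TAC-labelled library above every Sham-labelled one, against 13.4%. At an adjusted p under 0.1, 6 were higher in the TAC-labelled libraries, against 1.74%. Their summed FPKM was 1628 ± 136 (SD, n = 3) in the TAC-labelled libraries and 1164 ± 132 in the Sham-labelled ones, a ratio of 1.40. Acadl, the most abundant, weighs on that sum, and without it the ratio was 1.53.

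**Figure D4:**
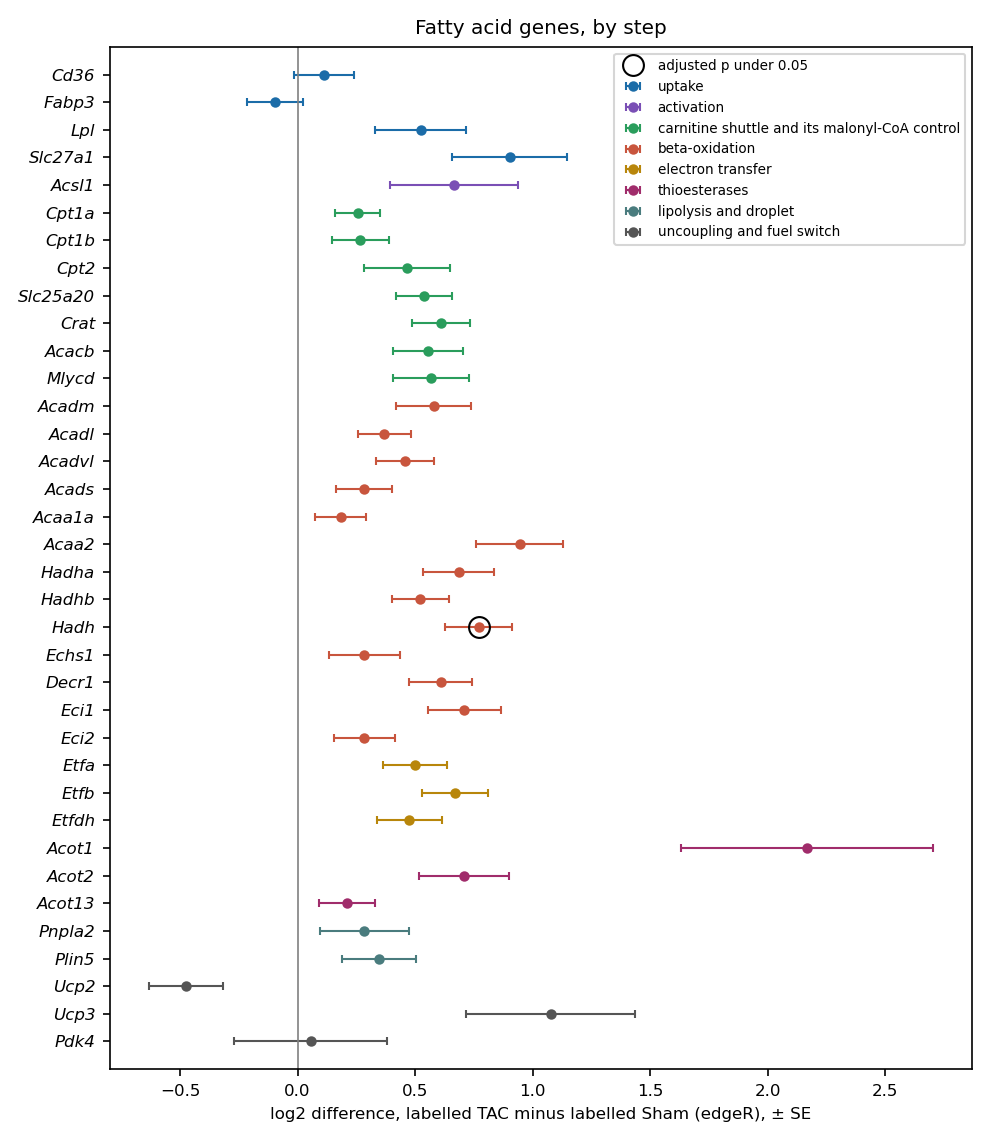
log2 difference, labelled TAC minus labelled Sham, with its SE from edgeR (x axis) for each of the 36 genes (y axis), coloured by step. Points lie right of 0 for 34 genes, and the ring marks Hadh, the gene with an adjusted p under 0.05.

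In CPM, the 3 electron transfer genes each lay higher in every TAC-labelled library than in any Sham-labelled one, against 13.4% of all genes. Etfa and Etfb encode the 2 subunits of the electron transfer flavoprotein, which takes electrons from the acyl-CoA dehydrogenases. Etfa had 309.5, 250.1 and 311 CPM and 225, 178 and 213 CPM (log2 difference 0.50, SE 0.14, adjusted p = 0.111), and Etfb had 228, 208 and 249 CPM and 168, 122 and 141 CPM (log2 difference 0.67, SE 0.14, adjusted p = 0.0650). Etfdh, which passes the electrons on to ubiquinone, had 690.1, 648 and 656 CPM and 565, 412 and 459 CPM (log2 difference 0.47, SE 0.14, adjusted p = 0.122). Their summed FPKM was 286 ± 24.9 (SD, n = 3) and 205 ± 30.03, a ratio of 1.39.

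The largest fold of the 36 genes belonged to a thioesterase. Acot1, the cytosolic acyl-CoA thioesterase, had 15.2, 14.2 and 25.9 CPM in the TAC-labelled libraries and 4.73, 1.20 and 6.62 CPM in the Sham-labelled ones (log2 difference 2.17, SE 0.54, adjusted p = 0.0915), with 314, 279 and 510 counts against 99, 34 and 122. The groups did not overlap and Sham 2 was the lowest library. The fitted fold was 4.49, and the SE of its log2 difference is the largest of the 36. Acot2, its mitochondrial relative 15628 bases away on chromosome 12, had 99.97, 74.8 and 81.9 CPM and 61.3, 38.96 and 57.1 CPM (log2 difference 0.71, SE 0.19, adjusted p = 0.109).

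Acot1 and Acot2 are near-identical copies, so reads may have been split between them, and the split is uncertain. Their summed CPM was 115, 89.0 and 108 in the TAC-labelled libraries and 66.0, 40.2 and 63.7 in the Sham-labelled ones. Acot1 took 13.2%, 16.0% and 24.0% of the summed counts in the TAC-labelled libraries and 7.17%, 2.99% and 10.4% in the Sham-labelled ones. Acot13, a thioesterase for medium and long chains, overlapped between groups at 178, 174 and 157 CPM and 164, 146 and 131 CPM (log2 difference 0.21, SE 0.12, adjusted p = 0.354). It makes up most of the summed FPKM of the 3 genes, which was 280.2 ± 10.4 (SD, n = 3) and 235 ± 22.8, a ratio of 1.19, and 1.82 without Acot13.

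Each of the 2 lipolysis and droplet genes overlapped between groups. Pnpla2, the adipose triglyceride lipase that starts the release of stored fatty acids, had 147, 149 and 231 CPM and 146, 155 and 132 CPM (log2 difference 0.28, SE 0.19, adjusted p = 0.428), with TAC 3 apart from the rest. Plin5, which coats droplets that sit against mitochondria, had 104, 81.6 and 72.6 CPM and 73.5, 59.2 and 70.3 CPM (log2 difference 0.35, SE 0.16, adjusted p = 0.258). Neither reached an unadjusted p under 0.05. Their summed FPKM was 51.4 ± 4.84 (SD, n = 3) and 43.2 ± 2.03, and these sums did not overlap.

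The uncoupling and fuel choice genes did not share a direction. Ucp2 encodes a mitochondrial carrier of the uncoupling protein family. It had 53.2, 68.8 and 47.8 CPM in the TAC-labelled libraries and 70.3, 86.00 and 79.7 CPM in the Sham-labelled ones (log2 difference -0.48, SE 0.16, adjusted p = 0.152). In CPM it was the only one of the 36 with every library labelled Sham above every library labelled TAC. Its neighbour Ucp3, the muscle relative that is regulated with fatty acid supply, had 72.4, 84.8 and 32.2 CPM and 26.2, 23.3 and 40.5 CPM (log2 difference 1.08, SE 0.36, adjusted p = 0.156), with TAC 3 among the Sham-labelled libraries. The FPKM of Ucp3 over that of Ucp2 was 2.05, 1.85 and 1.01 in the TAC-labelled libraries and 0.559, 0.407 and 0.765 in the Sham-labelled ones. Pdk4, a kinase that limits the conversion of glucose carbon to acetyl-CoA, ranged widely within each group, at 2035, 1261 and 1203 CPM and 821, 1638 and 1869 CPM (log2 difference 0.06, SE 0.33, adjusted p = 0.941). The summed FPKM of Ucp2, Ucp3 and Pdk4 was 384 ± 109 (SD, n = 3) and 386 ± 149.8.

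Ucp3 and Ucp2 lie on chromosome 7 with 6904 bases between their deposited ends, and their differences had opposite signs. The 250 bases before each RefSeq start site are shown for that reason (chr7:100472741-100472990 and chr7:100493108-100493357, both plus strand, GRCm38.p6), with capitals marking AGGTCA on either strand.
Ucp3: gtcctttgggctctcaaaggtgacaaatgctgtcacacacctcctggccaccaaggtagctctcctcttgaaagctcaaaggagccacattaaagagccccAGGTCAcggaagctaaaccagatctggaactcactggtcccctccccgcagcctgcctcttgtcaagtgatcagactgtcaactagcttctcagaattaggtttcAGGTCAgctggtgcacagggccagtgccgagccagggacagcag
Ucp2: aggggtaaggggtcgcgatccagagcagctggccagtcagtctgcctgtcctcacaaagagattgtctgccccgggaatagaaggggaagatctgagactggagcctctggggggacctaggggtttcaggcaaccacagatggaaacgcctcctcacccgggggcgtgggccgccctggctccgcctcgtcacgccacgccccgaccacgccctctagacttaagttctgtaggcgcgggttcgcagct

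AGGTCA is the hexamer that many nuclear receptors recognise. Ucp3 holds it 149 to 144 and 44 to 39 bases before its start, and the Ucp2 window does not hold it. A RefSeq promoter of 300 bases was found for 30 of the 36 genes, in 34 windows. The hexamer stood in 9 of the 34, from 8 genes (Cd36, Cpt1a, Acacb, Acadm, Acadvl, Echs1, Plin5 and Ucp3), while 16.3% of 32851 promoters of that length hold it. The longer TCAAGGTCA, which contains the hexamer, and the direct repeat AGGTCANAGGTCA stood in none of the 34, against 0.423% and 0.0396% of all promoters. Both strands were searched. These are matches of letters in a short window.

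**Figure D5:**
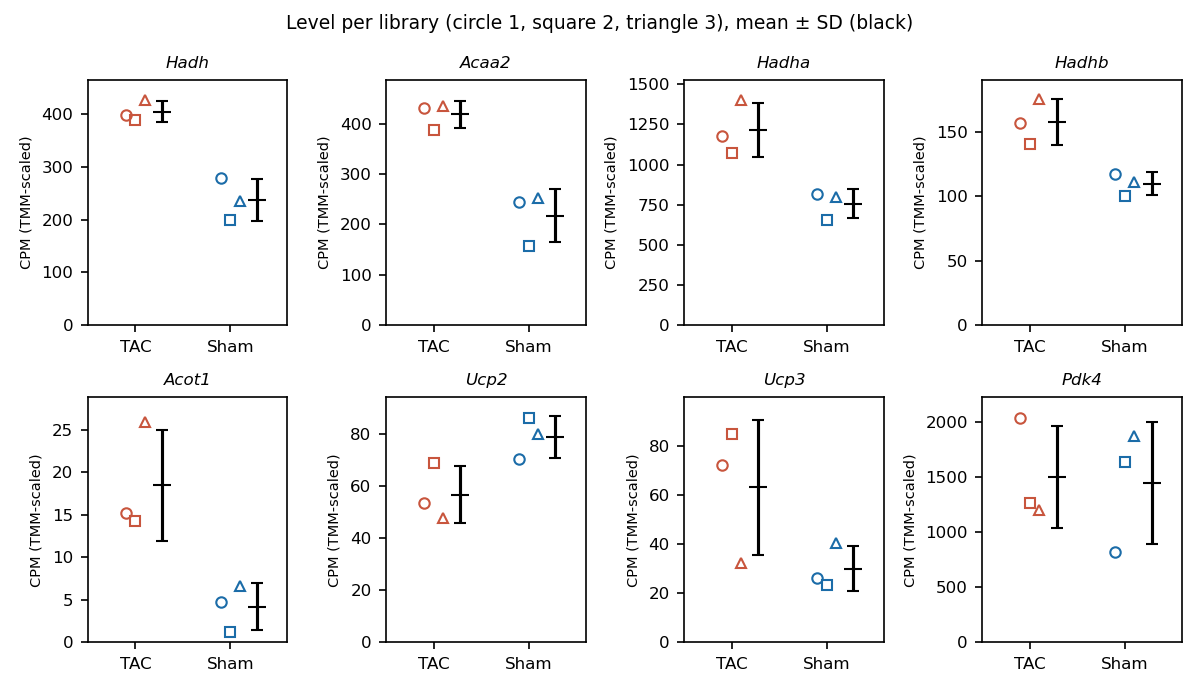
TMM-scaled CPM (y axis, from 0) of Hadh, Acaa2, Hadha, Hadhb, Acot1, Ucp2, Ucp3 and Pdk4 in each library (circle 1, square 2, triangle 3), with mean ± SD of 3 libraries in black for the groups labelled TAC and Sham (x axis). The first 5 genes separate upwards in the TAC-labelled libraries, Ucp2 separates downwards, and Ucp3 and Pdk4 overlap.

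Other genes of fatty acid metabolism, 87 in 7 lists and all tested, were counted in the same way, with values as log2 differences. A difference above 0 was found for 61 of them, and none passed the threshold in edgeR. At an unadjusted p under 0.05, 24 were higher and 6 lower in the TAC-labelled libraries, against 9.56% and 11.4% of all genes. DESeq2 called 6 higher and 2 lower, against 2.07% and 3.21% of the genes it was run on. Of 10 other uptake genes 6 lay above 0, with Slc22a5, the carnitine transporter, at 0.56 (adjusted p = 0.124). The next smallest p values of that list belonged to Vldlr, a lipoprotein receptor, at 0.60 (adjusted p = 0.197) and to Slc27a3 at -0.80 (adjusted p = 0.208). Of 10 other acyl-CoA synthetases and binding proteins 5 lay above 0, with Acsf3 at 0.36, Acsl5 at -0.38 and Acss1 at 0.43.

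Other mitochondrial acyl-CoA enzymes had the highest median of the 7 lists, 0.39, with 13 of 15 above 0. Mcee and Mut, of the propionate pathway, stood at 0.41 and 0.51. Acot7, a mainly cytosolic thioesterase that was placed on this list, stood at 0.40. Peroxisomal beta-oxidation had 15 of 17 above 0 and a median of 0.12. Of the 17, 1 was higher at an unadjusted p under 0.05, against 9.56% of all genes: Phyh, the phytanoyl-CoA hydroxylase, at 0.37. Ehhadh at 0.54 (SE 0.33) and Abcd3 at 0.30 (SE 0.20) overlapped between groups. Triglyceride and droplet genes had 11 of 14 above 0, led by Agpat3, an acyltransferase of glycerolipid synthesis, at 0.70 (adjusted p = 0.0505). Plin4, a droplet coat protein, stood at 0.58 and G0s2, an inhibitor of the lipase encoded by Pnpla2, at 0.56.

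The list of malonyl-CoA and fatty acid synthesis genes also held Prkaa1, Prkaa2, Prkab2 and Prkag2, subunits of a kinase and not synthesis enzymes. It had 1 of 9 above 0, the kinase subunit Prkaa2 at 0.06, and a median of -0.18. Prkab2, a subunit of AMP-activated protein kinase, had 45.01, 38.7 and 43.8 CPM in the TAC-labelled libraries and 73.2, 218 and 83.3 CPM in the Sham-labelled ones (log2 difference -1.55, SE 0.39, adjusted p = 0.0953), and Sham 2 was far above the rest. Scd1, the stearoyl-CoA desaturase, stood at -0.71 and Acaca, the cytosolic acetyl-CoA carboxylase, at -0.22. On a list of 12 nuclear receptors and other transcription regulators of oxidation genes, 10 lay above 0. The coactivators Ppargc1b and Ppargc1a stood at 0.72 (adjusted p = 0.0563) and 0.88 (adjusted p = 0.0643), and Ppara, a fatty acid sensing receptor, at 0.51 (adjusted p = 0.170).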

How the data were processed

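Left ventricle RNA was purified with a miRNeasy kit and made into total RNA libraries, per the labels' protocols. HISAT2 2.0.4, StringTie 1.3.0 and the build GRCm38 (mm10) appear in the submitters' processing notes. Not given in the sources used here are the counting program, its strand setting and the annotation version. The deposited gene table gives, per the file headers, counts and FPKM for every library. Its deposited counts are unscaled whole numbers. From the values, the FPKM that the authors deposited equals the count over a gene length and over the total of all gene counts in that library. The lncRNA table was not used, since none of its rows carries a symbol of the 36 genes.

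Counts were tested with edgeR 4.0.16 in R 4.3.3 (quasi-likelihood, TMM, filterByExpr with a minimum count of 10, no block), and p-values were adjusted by Benjamini-Hochberg over all genes tested. SE was taken as the size of the log2 difference over the root of the F statistic. DESeq2 1.42.0, limma 3.58.1 on log2(FPKM + 0.1) and on log2(FPKM + 1) for genes with a mean FPKM of at least 0.5, other scalings and filters, and leaving out each library were alternatives. The 36 genes and the pathway and marker lists were chosen with earlier results of these data known. From each pathway list the text names the 3 genes with the smallest p. Promoters come from RefSeq, GRCm38.p6. Protein sequences were not analysed here.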

Additional observations from a re-analysis of the deposited data

How the results depend on the processing

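The median log2 difference of the 36 genes stayed above 0 under every alternative run, between 0.41 (without Sham 2) and 0.59 (without Sham 1), and 33 or 34 of the 36 differences lay above 0. The number called higher in the libraries labelled TAC, 1 in the reported fit, was 0 with unscaled library totals, 0 with limma on log2(FPKM + 0.1), 0 with limma on log2(FPKM + 1), 0 with a mean count of at least 50, 6 with no filter on low counts, 20 with DESeq2 and 20 with DESeq2 on the genes tested by edgeR, the last chosen after seeing the data. Over all genes, those fits called 42, 30, 46, 44, 111, 456 and 478 higher in the libraries labelled TAC, against 49 in the reported fit. Leaving out each library in turn gave 0 to 4 of the 36. Over all genes that left 123 called higher in the libraries labelled TAC without Sham 1, and 0 to 4 without any other library. Called higher in the libraries labelled Sham were 274 genes without Sham 1, and 0 to 36 without any other library. With the replicate number as a replicate block it was 0 of the 36, with a median of 0.50. Among all genes that fit called 1 higher in the libraries labelled TAC and 40 higher in those labelled Sham. Deviations from the group means correlated at -0.136, -0.118 and -0.0959 between same-numbered libraries, and at 0.0142 to 0.111 between differently numbered ones. The same-numbered values were the lower ones and so showed no sign that the numbers pair the libraries. The correlations are tied to one another, because the 3 deviations in each group sum to 0. With 3 libraries per group they cannot decide the question of pairing. No gene of the 36 was called higher in the libraries labelled Sham under any alternative. Overlap between groups also depended on the scaling. In FPKM, Cpt1b, Cpt2 and Acaa1a overlapped and Fabp3 did not. Hadh had an adjusted p of 0.0537 with unscaled totals, 0.0589 and 0.0569 with limma, 0.0501 with a mean count of at least 50 and 0.107 with the replicate block. Pdk4 changed sign, to -0.018 with unscaled totals, and ranged from -0.23 to 0.28 when a library was left out. Acot1 had 34 counts in Sham 2 and the largest SE of the 36 genes. The causes of these changes were not tested.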
